A study of Mus musculus with 7 samples.

Results

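Striatins are scaffold proteins that bring a phosphatase and several kinases together in one assembly, the STRIPAK complex (striatin-interacting phosphatase and kinase). Striatin, striatin 3 and striatin 4 act as regulatory subunits of protein phosphatase 2A (PP2A), whose scaffold subunit Ppp2r1a and catalytic subunit Ppp2ca form the core of the enzyme. PDCD10 links the striatins to the germinal centre kinases of group III (GCKIII), STK24, STK25 and MST4, and the complex is known for restraining Hippo kinase signalling. In heart muscle, striatin is found at the intercalated disc, where it meets desmosome proteins. The set described here holds 9 genes, the striatins Strn, Strn3 and Strn4 and the partners Ppp2r1a, Ppp2ca, Pdcd10, Stk24, Stk25 and Mst4, of 23337 gene symbols in the count table. They were taken by family and complex membership around Strn, and Strn had been selected on its measured rise in CPM in the libraries labelled mutant. All 9 were measured, and all 9 were among the 14691 genes that passed the filter on low counts. Mst4 is listed under its older symbol 2610018G03Rik.

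RNA was measured by poly(A)-selected sequencing in the microdissected left ventricle of mouse embryos collected at embryonic day 12.5. The 5 control and the 2 mutant embryos all carried the Gt(ROSA)26Sortm1(cre/ERT2)Tyj allele, which expresses a tamoxifen-activated Cre recombinase from a locus active in most cell types, and the mothers of both groups received tamoxifen the day before collection. The controls were Tbx5+/+ and the mutants Tbx5flox/flox, in which Cre can remove part of the gene for the cardiac T-box factor TBX5. The deletion is therefore not limited to heart muscle cells. The labels give no litter, sex or batch, so p-values set the group difference only against the spread between libraries. A difference of litter or batch between the groups cannot be told apart from genotype.

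Library totals ran from 20268208 to 24440806 counts. The Tbx5 count over the whole gene was no lower under the mutant label: the controls ranged from 64.2 to 98.3 CPM (read counts scaled to a common library total) and mutant replicates 1 and 2 were at 93.9 and 114 CPM. That count includes exons outside the deleted part, so the genotypes rest on the labels and the groups are called libraries labelled mutant below. Ventricular markers such as Myl2 and Myh7 were abundant in every library, and the 8 ventricular markers together ranged from 19690 to 24920 CPM in the controls, against 21780 and 24600 CPM in the libraries labelled mutant. Within that sum Myl2 lay below every control in both libraries labelled mutant (7433 to 10780 against 6263 and 5726 CPM) and Myh7 above (7718 to 10250 against 11650 and 14870 CPM), neither called (edgeR adjusted p 0.0586 and 0.0711). Xist was at or below 1.09 CPM in control replicates 1 and 3 and at or above 311 CPM in the 5 other libraries.

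The promoter windows of the 3 striatins and of Strip2, a further STRIPAK subunit described below, are shown because Strn chose the set and Strip2 was the further subunit called higher, while Strn3 and Strn4 were not called. Each window runs from 250 bases before to 50 bases after a RefSeq start site of build GRCm38.p6 and is written 5′ to 3′ on the strand of the gene. That start lies 761 bases inside the 5′ end of the gene as positioned below for Strn, 437 bases inside for Strn3 and 37 for Strip2, and at the end itself for Strn4. Capitals mark GGTGT or its reverse complement ACACC, the core of the sequence that T-box factors bind.
Strn, chr17:78736512-78736811, minus strand: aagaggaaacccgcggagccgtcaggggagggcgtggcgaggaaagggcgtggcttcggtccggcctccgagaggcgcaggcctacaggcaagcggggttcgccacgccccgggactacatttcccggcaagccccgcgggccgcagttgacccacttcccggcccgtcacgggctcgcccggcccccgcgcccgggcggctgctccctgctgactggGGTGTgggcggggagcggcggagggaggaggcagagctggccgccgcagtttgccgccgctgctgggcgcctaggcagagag
Strn3, chr12:51691865-51692164, minus strand: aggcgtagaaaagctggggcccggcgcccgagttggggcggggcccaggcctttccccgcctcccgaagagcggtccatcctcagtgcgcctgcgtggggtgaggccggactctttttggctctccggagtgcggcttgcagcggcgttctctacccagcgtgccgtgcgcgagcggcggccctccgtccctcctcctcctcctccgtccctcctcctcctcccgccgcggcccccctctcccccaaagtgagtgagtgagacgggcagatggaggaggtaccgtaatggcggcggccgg
Strn4, chr7:16815639-16815938, plus strand: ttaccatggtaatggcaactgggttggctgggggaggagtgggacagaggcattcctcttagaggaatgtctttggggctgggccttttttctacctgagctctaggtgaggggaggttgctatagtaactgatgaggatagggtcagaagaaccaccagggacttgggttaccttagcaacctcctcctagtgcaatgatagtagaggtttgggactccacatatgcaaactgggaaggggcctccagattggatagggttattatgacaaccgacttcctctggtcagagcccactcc
Strip2, chr6:29916763-29917062, plus strand: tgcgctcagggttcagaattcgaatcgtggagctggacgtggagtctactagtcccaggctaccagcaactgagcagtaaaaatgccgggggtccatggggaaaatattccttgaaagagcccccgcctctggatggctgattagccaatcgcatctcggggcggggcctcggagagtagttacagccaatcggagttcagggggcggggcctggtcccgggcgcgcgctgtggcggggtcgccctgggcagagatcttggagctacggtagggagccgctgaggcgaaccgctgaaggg

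The Strn window held 1 match, whose first base lies 32 bases before the start site, and the windows of Strn3, Strn4 and Strip2 held 0. Matches to GGTGT on either strand were present in 41.6% of the 32851 promoter windows of the reference, and in 3 of the 8 members with an entry, Strn, Stk25 and Mst4. The longer core AGGTGT, which contains GGTGT, was found in 13.7% of all windows and among the members only in that of Stk25. The start site of that Stk25 window lies 18489 bases inside the 5′ end of the gene as positioned below. The Strn window was 74.7% G and C with 35 CpG dinucleotides, and that of Strn3 71.0% with 31, against a median of 52.7% and 7 over all windows. The Strn4 window differed from both, with 51.3% G and C and 1 CpG. A match describes the letters of the window and was not tested as a binding site.

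Among the members, Strn was the transcript that stood apart in the libraries labelled mutant. Strn encodes striatin, the founding member of the family, on chromosome 17 at 78649898 to 78737322 (GRCm38.p6). Its level was 49.1, 53.2, 44.3, 62.5 and 51.2 CPM in control replicates 1 to 5, against 124 and 117 CPM in mutant replicates 1 and 2. Both libraries labelled mutant lay far above the highest control, control replicate 4, and close to each other. The mean of 52.1 ± 6.72 CPM (SD, n = 5) for controls compares with 120.5 ± 4.58 CPM (SD, n = 2) for the mutant label, a fold of 2.32 with a 95% interval of 1.95 to 2.75. Because this difference chose the set, it is given as a description with no test, and its 95% interval does not allow for that choice. Strn is also the 1 member in the authors' deposited table of 668 significant genes, at a log2 fold change of 1.21. That table comes from the same series, so it is not separate evidence for the rise. In bulk tissue, more RNA per cell and more cells of a type cannot be told apart.

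Neither paralog was called. Strn3, which encodes striatin 3 (chromosome 12, 51608541 to 51692351), was at 137, 129, 128, 122 and 117 CPM in control replicates 1 to 5 and at 128 and 132 CPM in mutant replicates 1 and 2. Both libraries labelled mutant lay inside the control range. Its log2 fold change was 0.04 (standard error, SE, 0.08), with an adjusted p of 0.864 by edgeR's quasi-likelihood test with Benjamini-Hochberg adjustment over all genes tested. Strn4, which encodes striatin 4, also called zinedin (chromosome 7, 16815889 to 16840931), was at 138, 150, 139, 127 and 144 CPM in the controls and at 156 and 146 CPM in the libraries labelled mutant. Mutant replicate 1 was above every control and mutant replicate 2 within their range. The log2 fold change of Strn4 was 0.11 (SE 0.09), with an adjusted p of 0.525 by the same test. The 95% intervals end at a fold of 1.16 for Strn3 and 1.23 for Strn4. A sequenced read of 50 bases separates the paralogs: 0 of the 8848 stretches of 50 bases in annotated Strn transcripts occur in a transcript of another member, and 1.77% occur in transcripts of any other gene, most of them in the processed pseudogene Gm12079.

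Neither member of the phosphatase core passed the test, and their log2 fold changes were close to 0. Ppp2r1a, the PP2A scaffold subunit (chromosome 17, 20945454 to 20965905), ranged from 344 to 394.5 CPM in the controls, with a median of 370.2, and was at 415 and 361 CPM in the libraries labelled mutant. Its log2 fold change was 0.07 (SE 0.09). Ppp2ca, the catalytic subunit (chromosome 11, 52098824 to 52122749), ranged from 333 to 372 CPM in the controls, with a median of 339, and was at 346 and 352 CPM, a log2 fold change of 0.02 (SE 0.08). The adjusted p was 0.751 for Ppp2r1a and 0.919 for Ppp2ca (edgeR quasi-likelihood). Their second copies, which are not members, were not called either: the log2 fold change was 0.03 (SE 0.10) for Ppp2r1b and 0.01 (SE 0.09) for Ppp2cb. Of the exon bases of Ppp2ca, 3184 of 7490 overlap other annotated genes, most of them a long noncoding RNA on the opposite strand, and the kit does not mark strand, so reads from these stretches cannot be assigned to a strand.

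The kinase arm also held no called gene. Stk24, also known as MST3 (chromosome 14, 121284187 to 121380496), was at 60.1, 71.3, 60.5, 60.7 and 69.7 CPM in control replicates 1 to 5 and at 72.3 and 77.9 CPM in mutant replicates 1 and 2. Both libraries labelled mutant were above the controls, mutant replicate 1 only slightly, and the log2 fold change was 0.22 (SE 0.10) with an adjusted p of 0.270. Stk25 (chromosome 1, 93620751 to 93654216), known as a Golgi-associated kinase, had the smallest spread among the controls relative to its mean, at 111.5 to 117 CPM in the controls and at 110 and 115 CPM in the libraries labelled mutant. Its log2 fold change was -0.02 (SE 0.07, adjusted p 0.936), and 1371 of its 5812 exon bases overlap the neighbouring gene Farp2 or an antisense transcript. Mst4 (chromosome X, 50841174 to 50893103) varied most among the controls, from 15.9 CPM in control replicate 5 to 38.3 CPM in control replicate 3, and was at 30.1 and 26.5 CPM in the libraries labelled mutant. Its log2 fold change of 0.06 (SE 0.26, adjusted p 0.935) has a 95% interval from -0.53 to 0.65, so a difference of up to 1.57-fold is not excluded by its interval. These adjusted p-values are those of edgeR's quasi-likelihood test.

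Pdcd10, the adaptor that ties the GCKIII kinases to the striatins and is also known as the cerebral cavernous malformation gene CCM3, was the member with the lowest log2 fold change. On chromosome 3 at 75516490 to 75556852, it was at 49.7, 42.6, 49.3, 47.4 and 36.0 CPM in the controls and at 40.6 and 31.9 CPM in the libraries labelled mutant. Mutant replicate 2 was below every control, while mutant replicate 1 was above control replicate 5. The log2 fold change was -0.31 (SE 0.14), with a 95% interval from -0.63 to 0.0038 and an adjusted p of 0.288 (edgeR quasi-likelihood). Leaving out mutant replicate 1 gave -0.49, and leaving out mutant replicate 2 gave -0.14. Of the 2972 stretches of 50 bases in annotated Pdcd10 transcripts, 399 (13.4%) also occur in the annotated gene Gm14253. How reads matching both were counted is not given in the sources used here.

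Of the 8 members other than Strn, 0 passed an adjusted p of 0.05 by edgeR's quasi-likelihood test, where 1.36% of all genes tested did. At an unadjusted p under 0.05 there was 1, Stk24, where 17.6% of all genes tested passed, and DESeq2 and limma-voom also called 0 of the 8. The log2 fold changes of the 8 ran from -0.31 to 0.22 with a median of 0.05, beside a median of -0.0080 over all genes tested, and 6 were positive and 2 negative. Both libraries labelled mutant lay outside the control range for 1 of the 8, Stk24, where this held for 20.2% of all genes tested.

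**Figure D1:**
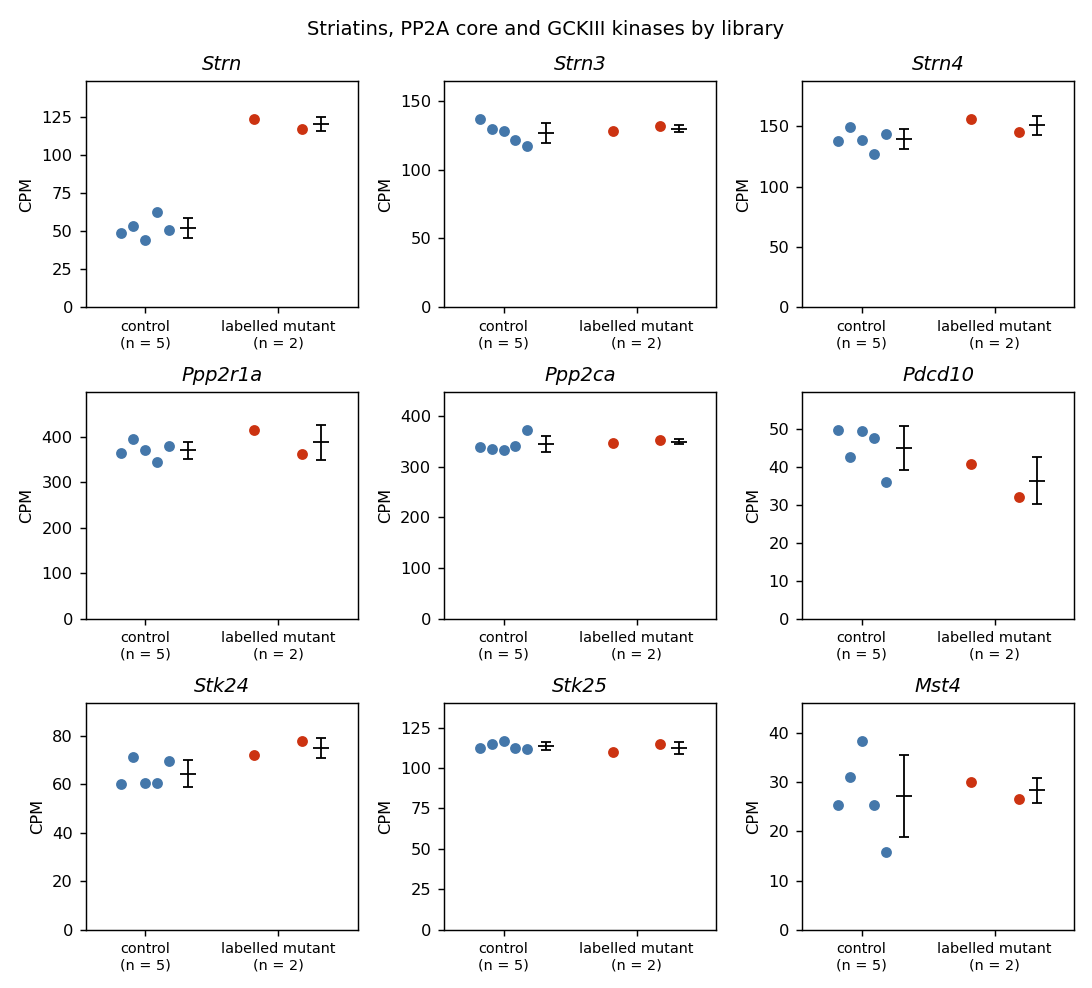
Level of each member in CPM (vertical axes, from 0) in the 5 control libraries (blue) and the 2 libraries labelled mutant (red), with the mean and SD beside the points. The Strn points labelled mutant sit at 117 and 124 CPM, above all controls, while the other panels overlap or, for Stk24, lie close together.

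Levels of different genes were compared per length, as counts per kilobase of merged exons scaled in each library to one common total over all genes with a length. On this scale the controls expressed Ppp2r1a most, at 317 ± 19.9 (SD, n = 5), followed by Ppp2ca at 134 ± 8.08, and neither range touched the next member. Stk25, Strn3, Strn4 and Pdcd10 followed at 57.0 ± 1.01, 55.6 ± 3.25, 51.1 ± 3.64 and 44.6 ± 5.17, and each of them overlapped the next in the ranges of the 5 controls. Pdcd10 also overlapped Stk24, at 35.2 ± 3.62. Strn, at 17.2 ± 2.37, and Mst4, at 15.0 ± 4.34, came last and overlapped each other. In the left ventricle of the controls striatin was the least abundant of the 3 striatin transcripts. In the libraries labelled mutant Strn stood at 41.6 and 42.6 on the same scale.

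The composition of the striatin pool differed accordingly. Strn made up 12.8%, 13.6%, 17.1% and 13.9% of the summed per-length level of the 3 striatins in control replicates 1, 2, 4 and 5 and less in control replicate 3. It made up 26.4% and 25.8% in mutant replicates 1 and 2. The mean share was 12.3 percentage points higher, which again describes the difference that chose the set. With the longest annotated transcript in place of merged exons, a setting added after the data were seen, the mean difference in share was 8.14 percentage points. The summed count of the 3 genes ranged from 311 to 332 CPM in the controls and reached 408 and 394 CPM under the mutant label.

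Shares within the families without Strn were compared by exact two-sided permutation tests over all 21 assignments of the group labels, 5 tests in all, where the smallest possible p is 0.0476. Stk25 held 50.7% to 54.7% of the GCKIII level in the controls, against 49.6% and 50.2% in the libraries labelled mutant, with an exact p of 0.0476 that became 0.238 after Benjamini-Hochberg adjustment. The share of Stk24 was 32.8% ± 2.91 (SD, n = 5) against 36.2% ± 1.11 (SD, n = 2), with an exact permutation p of 0.238 and an adjusted p of 0.595. Mst4 held 13.9% in both groups, with an exact p of 0.952. Ppp2cb made up 58.7% ± 0.857 (SD, n = 5) of the per-length level of the catalytic subunits in the controls and 58.4% ± 1.35 (SD, n = 2 labelled mutant), and Ppp2r1b 9.77% ± 0.373 and 9.54% ± 0.0844 of that of the scaffold subunits, with exact permutation p-values of 0.714 and 0.524. Adjusted p-values of these last 3 shares lay between 0.873 and 0.952. The order of the catalytic subunits depends on the length scaling, with 7490 merged exon bases for Ppp2ca and 1469 for Ppp2cb. By CPM with no length scaling Ppp2ca was the higher, at a control mean of 344 CPM against 95.9 CPM for Ppp2cb.

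**Figure D2:**
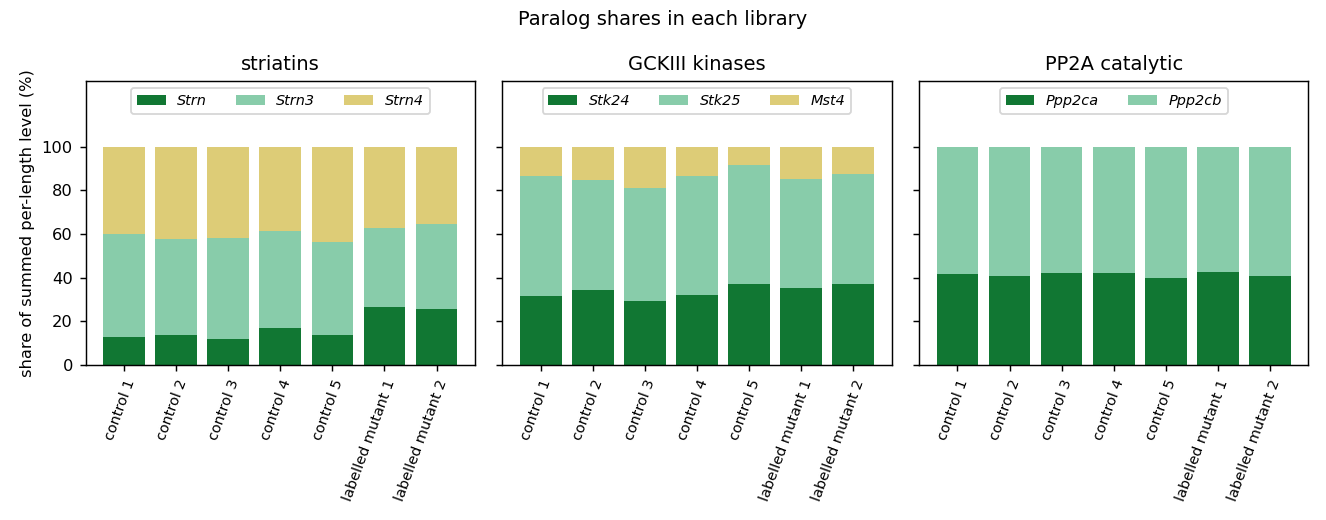
Share in percent of each paralog in the summed per-length level of its family (vertical axes) for each of the 7 libraries, shown for the striatins, the GCKIII kinases and the PP2A catalytic subunits. The Strn share is at most 17.1% in the controls, against 25.8% and 26.4% in the libraries labelled mutant, and Stk25 holds 50.7% to 54.7% of the GCKIII level against 49.6% and 50.2%.

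The STRIPAK complex has further subunits beyond the 9 members, and of 8 such genes tested 1 was called higher, where 0.463% of all genes were, and 0 lower. This was Strip2 (listed as Fam40b), a striatin-interacting protein of the structural core of the complex, on chromosome 6. It rose from 97.0, 88.3, 93.7, 128 and 89.4 CPM in control replicates 1 to 5 to 176 and 206.5 CPM in mutant replicates 1 and 2. Both libraries labelled mutant were above every control, and control replicate 4, the highest control for Strn, was also the highest for Strip2. The log2 fold change was 0.94 (SE 0.14) with an adjusted p of 0.0134 by edgeR's quasi-likelihood test. Strip2 is in the authors' deposited table, from the same series, at a log2 fold change of 0.94. The call was lost without mutant replicate 2 (adjusted p 0.175), among the 5 libraries that expressed Xist (0.0812), with Xist class as a covariate (0.0569) and without both control replicate 5 and mutant replicate 2 (0.208), while the log2 fold change stayed between 0.80 and 1.06 in all 18 alternative fits.

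The other 7 of these subunits were not called by edgeR's quasi-likelihood test. Their log2 fold changes lay between -0.23, for the cortactin-binding protein gene Cttnbp2nl, and 0.40, for Cttnbp2. Cttnbp2 had both libraries labelled mutant above the controls, at 12.2 and 12.8 against 7.49 to 10.7 CPM, with an adjusted p of 0.207 by the same test. Mob4, which encodes phocein, and the tail-anchored protein gene Slmap were at 0.05 (SE 0.09) and 0.04 (SE 0.13). The median of the 8 subunits was 0.07, beside -0.0080 over all genes tested.

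**Figure D3:**
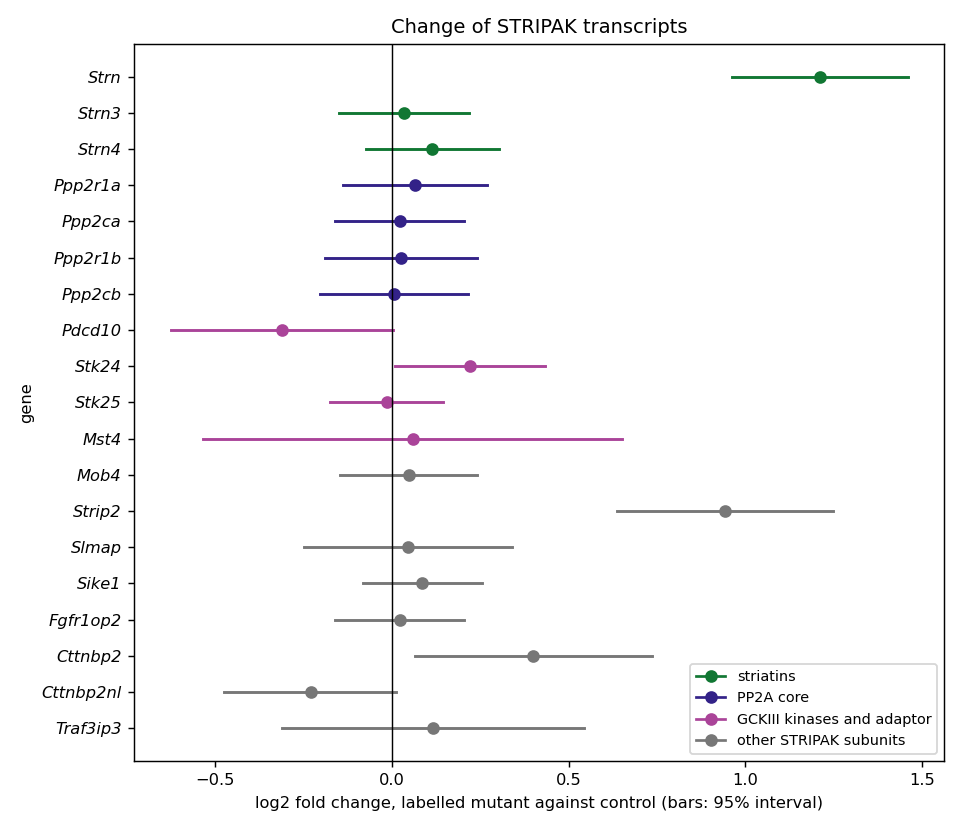
Log2 fold change of libraries labelled mutant against controls (horizontal axis) with 95% intervals for the 9 members, the second PP2A copies and 8 further STRIPAK subunits. Strn at 1.21 and Strip2 at 0.94 stand to the right of all other genes, most of whose intervals span 0. The Strn interval does not allow for the choice of the set on the rise of Strn.

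Other regulatory subunits compete with striatins for the PP2A core. Of 12 listed, 11 were tested and 0 were called by edgeR's quasi-likelihood test, where 1.36% of all genes tested were. At an unadjusted p under 0.05 there was 1, where 17.6% of all genes tested passed, and the median log2 fold change was 0.07. The highest mean CPM, with no length scaling, was that of Ppp2r3a, at 229 ± 13.1 CPM (SD, n = 5 controls) and 274 and 317 CPM in the libraries labelled mutant, both above every control. Its log2 fold change was 0.37 (SE 0.09) with an adjusted p of 0.0803, and DESeq2 called it at an adjusted p of 0.00714. Ppp2r5c, of the B56 class, was at 0.07 (SE 0.08).

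Downstream of the complex, 0 of 23 genes of the Hippo pathway were called, 6 had an unadjusted p under 0.05, where 17.6% of all genes did, and the median log2 fold change was 0.08. Map4k4, a kinase that acts beside the Hippo kinases, was at 0.18 (SE 0.08) and the transcription factor gene Tead2 at -0.11 (SE 0.09). Tead1, named after its values were seen, had the lowest adjusted p of this list, 0.0655 by edgeR's quasi-likelihood test, with 129 to 181.5 CPM in the controls, against 210.2 and 273 CPM in the libraries labelled mutant. Of 8 genes known as targets of the Hippo effector YAP, 0 were called and 4 had an unadjusted p under 0.05, beside the same 17.6%. Those of highest mean CPM with no length scaling, Ankrd1 and Amotl1, were at 0.10 (SE 0.12) and 0.16 (SE 0.12) on the log2 scale, and the list had 4 positive and 4 negative values. Ctgf, Axl and Cyr61, named after their values were seen, had both libraries labelled mutant below every control, at -0.46 (SE 0.17), -0.34 (SE 0.10) and -0.23 (SE 0.09), with edgeR adjusted p-values of 0.192, 0.105 and 0.229. In the same list 1 gene, Amotl2, had both above every control, at 0.12 (SE 0.08) with an edgeR adjusted p of 0.444. Both libraries labelled mutant lay outside the control range for 20.2% of all genes tested. Lats2 was the gene of this list at an unadjusted p under 0.05 besides Ctgf, Axl and Cyr61. It was at 0.35 (SE 0.14, edgeR adjusted p 0.234), with mutant replicate 1 inside the control range. Lats2 is also counted in the Hippo pathway list. Of 9 tested partners of PDCD10 and the GCKIII kinases, among them the cerebral cavernous malformation genes Krit1 and Ccm2, 0 were called. Of these partners 1 had an unadjusted p under 0.05, beside the same 17.6%. Msn and Rdx, which encode the membrane-cytoskeleton linkers moesin and radixin, were at 0.15 (SE 0.09) and 0.13 (SE 0.13).

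Proteins that bind striatin or neighbour it at the intercalated disc gave the highest median of the fixed lists around the complex, 0.31 over 12 genes, with 9 positive and 3 negative values. Of these 12, 0 were called by edgeR's quasi-likelihood test and 6 had an unadjusted p under 0.05, where 17.6% of all genes did. The 8 cardiomyocyte markers, which are not among the lists around the complex, had a median of 0.26, with 6 positive and 2 negative values. Dsp, which encodes the desmosome protein desmoplakin, was at 370.3, 436, 370, 514 and 576 CPM in control replicates 1 to 5 and at 579 and 942 CPM in mutant replicates 1 and 2. Mutant replicate 1 lay just above the highest control, and the log2 fold change of 0.75 (SE 0.21) had an adjusted p of 0.105 by the same test. It was called by DESeq2 (adjusted p 0.0109) and, at the limit, by edgeR without mutant replicate 1 (0.0498). Without mutant replicate 2 its log2 fold change was 0.365 (edgeR adjusted p 0.696). Jup and Pkp2, for plakoglobin and plakophilin 2, were named after their values were seen: both had each library labelled mutant above every control, at log2 fold changes of 0.36 (SE 0.08) for Jup and 0.32 (SE 0.09) for Pkp2. Their adjusted p-values by edgeR's quasi-likelihood test were 0.0567 and 0.102. Cav1, for caveolin 1, was likewise chosen after the fact and went the other way, with 218 ± 41.1 CPM (SD, n = 5) against 137 ± 11.8 CPM (SD, n = 2). Its edgeR adjusted p was 0.0763. Cav3, for caveolin 3 and also named after the fact, was higher, at 98.5 and 95.1 CPM in the libraries labelled mutant against 62.85 to 88.6 CPM. The log2 fold change of Cav3 was 0.32 (SE 0.12), with an edgeR adjusted p of 0.194. Calm2, a calmodulin gene, was at -0.24 on the log2 scale (SE 0.12), and its edgeR quasi-likelihood adjusted p was 0.333.

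**Figure D4:**
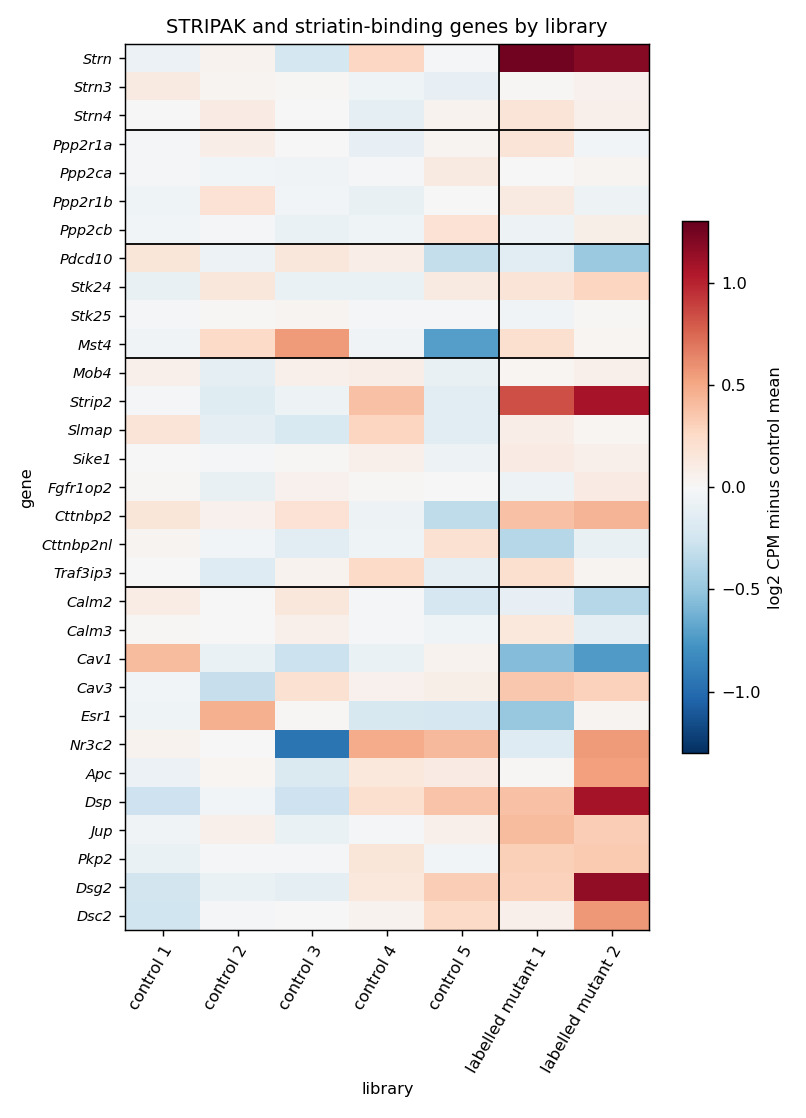
Log2 CPM minus the control mean (colour) for the STRIPAK genes and the striatin-binding and desmosome genes (rows) in the 7 libraries (columns). Strn and Strip2 are the strongly red STRIPAK rows in both libraries labelled mutant, and Dsp is reddest in mutant replicate 2, at 942 CPM.

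The genes whose levels over the 7 libraries were closest to those of Strn were ranked by the root mean square difference of log2 CPM centred on the control mean, over 13387 genes of at least 1 CPM. The 5 closest were Sntb1 at 0.0981, Alox5 at 0.173, Lmo7 at 0.185, 4933404O12Rik at 0.187 and Zcchc12 at 0.199, and Strip2 ranked sixth at 0.201. Sntb1, a syntrophin gene, was at 8.22 to 10.8 CPM in the controls and at 20.8 and 20.9 CPM in the libraries labelled mutant. Lmo7, a LIM-domain gene of cell junctions, was at 254 to 309 CPM against 511 and 561.5 CPM. The closest of the other members was Stk24, at rank 1596 with 0.558, and the farthest was Pdcd10, at rank 11564. The ranking rests mainly on the difference between the groups and is a description.

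The chromosomal neighbours of Strn were read for comparison. The nearest tested gene, Heatr5b, lies 15.6 kb away toward higher coordinates, and was at 46.1 to 59.5 CPM in the controls and at 73.1 and 78.2 CPM in the libraries labelled mutant. Both lay above every control, and the log2 fold change was 0.47 (SE 0.10) with an adjusted p of 0.0533 by edgeR's quasi-likelihood test. Beyond it, Ccdc75 was at 0.24 (SE 0.15) and Eif2ak2 at -0.03 (SE 0.13). On the other side, Fez2 at 232 kb and Crim1 at 273 kb were at 0.08 (SE 0.10) and 0.12 (SE 0.13), and Fam98a, 3100 kb away, at 0.0022 (SE 0.08). Signs turned when 1 library was left out: Ccdc75 was at -0.02 without mutant replicate 1 and Crim1 at -0.13 without mutant replicate 2, while Eif2ak2 ran from -0.16 to 0.10 and Fam98a from -0.016 to 0.0419. None of the 6 was called, and no exon of Strn overlaps an exon of another annotated gene.

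Markers of some cell types differed between the groups. Of 10 cushion mesenchyme and fibroblast markers 7 were called lower, where 0.899% of all genes were, and 0 higher. Their summed level ranged from 2801 to 4666 CPM in the controls against 1729 and 2090 CPM in the libraries labelled mutant. Of 10 macrophage markers 3 were called lower, with a sum of 206 to 292 CPM in the controls and lower in both libraries labelled mutant, at 135 CPM in replicate 2, and of 8 epicardial markers 1, with 381 to 550 CPM against 391.5 and 278 CPM. The 8 cardiomyocyte markers, 0 of them called, summed to 18580 to 21160 CPM against 21960 and 22810 CPM, both above the controls. The 10 endocardial and endothelial markers overlapped, at 868 to 1283 against 810 and 1223 CPM, as did 9 erythroid markers. Among the erythroid markers Hba-a1 and Hba-a2 had the same count in every library, so they are not separate measurements. None of these lists had a defining marker at 0 counts in any library. The part of such differences in the levels of Strn and Strip2 was not tested. Ttn, a cardiomyocyte marker with a very long transcript, was named after its values were seen. At 714 CPM it was highest among the controls in control replicate 4, as were Strn and Strip2. The other controls had 328 to 417 CPM of Ttn, and the libraries labelled mutant 612 and 898 CPM. Ryr2 was also highest among the controls in control replicate 4, at 267 CPM, while Myh6 and Nkx2-5 were lowest there, at 1170 and 74.6 CPM. The remaining cardiomyocyte markers were neither highest nor lowest in control replicate 4.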

How the data were processed

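Whole-number read counts per gene symbol were deposited by the authors for 7 libraries, and are not normalized. Tools named by the submitters' processing notes are limma 3.30.13, edgeR 3.16.5, R 3.3.2, featureCounts and TopHat2 2.1.1, with build mm10. Per the labels' protocols the kit was a TruSeq RNA v2 kit, which does not mark strand. For the annotation and multiply matching reads, the setting is not given in the sources used here. A second deposited table lists the authors' log2 fold changes with p-values. The base of that log is taken from its closeness to values computed here.

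Groups came from the sample titles. Counts were filtered with filterByExpr (minimum count 10, minimum total 15), scaled by TMM and tested with glmQLFit and glmQLFTest (robust, genotype only) in edgeR 4.0.16 under R 4.3.3. p-values were Benjamini-Hochberg adjusted over 14691 genes, with a threshold of 0.05. The SE is the log2 fold change divided by the square root of F. The test was tested on simulated data. Exon lengths came from GENCODE M21 (22844 symbols matched) and positions and promoters from RefSeq GRCm38.p6 (23062 symbols matched). Intervals cover the spread between libraries. Named genes were all members, the called genes of each list (up to 4) or else its 2 of highest mean CPM, the 5 genes closest to Strn and the 3 nearest tested genes on either side of it. The members and lists were chosen with earlier results of these data known. Some list genes are not reported here and were left out of the lists' counts. Alternatives used DESeq2 1.42.0, limma-voom (limma 3.58.1), other scalings and filters, left-out libraries, a replicate block and Xist class. Figures used matplotlib 3.10.9.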

Additional observations from a re-analysis of the deposited data

Results flagged for a closer look

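In 3 of 31 genes examined, 1 control library stood apart from the 4 others by Dixon's criterion, which chance alone meets in about 1 of 20 groups. Ppp2ca was at 372 CPM in control replicate 5, against 333 to 341 CPM in the other controls. Strip2 was at 128 CPM in control replicate 4, against 88.3 to 97.0 CPM, and without that library its log2 fold change was 1.06 with an adjusted p of 0.00148 by edgeR's quasi-likelihood test. Map4k4 was at 208 CPM in control replicate 5, against 191 to 196 CPM.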

How the results depend on the processing

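The number of genes called among all tested, 200, was 783 with DESeq2, 114 with limma-voom, 811 with the replicate block, 66 among the 5 libraries that expressed Xist, 60 with Xist class as a covariate and 52 without both control replicate 5 and mutant replicate 2. Leaving out 1 library at a time gave 12 (without mutant replicate 2) to 275 called genes, among them 78 and 72 without control replicates 1 and 2. Of the 8 members other than Strn, 0 were called in all 18 alternative fits, the lowest adjusted p being 0.103 over 144 values, and the log2 fold change of Strn ran from 1.12 to 1.29. Of the 144 values 9 changed sign, all in genes near 0: Strn3 was at -0.0372 with the replicate block and -0.00322 without both libraries, and Ppp2ca at -0.00659 with upper-quartile scaling and -0.0004 with Xist class. With 1 library left out, Ppp2r1a ran from -0.0372 to 0.174, Stk25 from -0.0371 to 0.0168 and Mst4 from -0.0798 to 0.221. Among the other named genes with a test, Rdx ran from -0.0187 to 0.272 and Amotl1 from -0.0454 to 0.343 with 1 library left out, and without both libraries Amotl1 was at -0.00105. Strn held place 8 of 9 members by per-length level in the controls, place 9 with longest transcripts and place 7 by CPM. The Strn share difference of 12.3 percentage points was 11.8 to 13.1 with 1 library left out and 8.14 with longest transcripts. Replicate numbers 1 and 2 are shared by the groups, and the labels give no litter. Deviations of same-numbered libraries from their group means had correlations over genes of 0.078 and 0.012. With 2 mutant libraries the mismatched pairs mirror these by construction, at -0.078 and -0.012, so the values cannot decide on a pairing. The number was not taken as a pairing. The replicate block left 0 of the 8 members called and called Dsp (adjusted p 0.00036, edgeR quasi-likelihood). Its contrast rests only on the libraries whose number occurs in both groups, since each other control is taken up by its own block term. The cause of the changes across these fits was not tested.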
